A study of Mus musculus with 12 samples.

Results

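The genes described here are 33 genes of the Fanconi anaemia pathway and of homologous recombination, taken by symbol from a table of 27179 mouse genes. They comprise 8 genes of the Fanconi core complex (Fanca, Fancb, Fancc, Fance, Fancf, Fancg, Fancl and Fancm), both genes of the ID2 complex (Fancd2 and Fanci), 5 genes of the BRCA1 and BRCA2 complexes (Brca1, Bard1, Brip1, Palb2 and Brca2) and 5 genes of end resection (Rbbp8, Mre11a, Rad50, Nbn and Exo1). The remainder are 5 recombination mediators (Rad51b, Rad51c, Rad51d, Xrcc2 and Xrcc3), 4 genes of strand-exchange partners (Rad51ap1, Rad54l, Rad54b and Dmc1) and 4 genes that dissolve or cut joined DNA molecules (Blm, Slx4, Eme1 and Mus81). Of the 33 genes, 32 had enough reads to be tested. Dmc1, the meiotic recombinase, did not, with 78 reads over all 12 libraries, and it is reported apart.

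The cells were mouse embryonic fibroblasts, the connective-tissue cells that grow out of minced embryos, here wild-type C57BL/6 embryos of day E13.5 cultured at 3% oxygen, and their polyadenylated RNA was sequenced. All cells received a compound at 10 µM. The groups are WM-8014 for 240 h, WM-2474 for 240 h, WM-8014 for 96 h and WM-2474 for 96 h, each with cultures 5, 6 and 7. The labels describe WM-8014 as an inhibitor of MYST histone acetyltransferases and WM-2474 as its inactive control, and no untreated cells were analysed here. The series calls the 3 cultures biological replicates, but the labels do not say from how many embryos they came.

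The Fanconi pathway removes covalent links between the strands of DNA. Its core complex is a ubiquitin ligase that marks FANCD2 and FANCI, and the marked pair recruits nucleases and recombination proteins to the damage. Homologous recombination repairs breaks by resecting the ends, assembling a protein filament on the single strand with the help of BRCA2 and PALB2, invading an intact copy and separating the joined molecules. The copy is usually the sister chromatid, so the pathway works mainly in the S and G2 phases of dividing cells.

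Libraries held 10147466 to 45903190 reads counted in genes, and 3 reads corresponded to 0.0615 to 0.303 CPM (counts scaled to library totals of equal size), a limit of counting error only. All 10 fibroblast markers were detected in every group, and their sums overlapped between the compounds at both times. Means of some single ones differed. Lum averaged 3.45 CPM with WM-8014 and 16.0 CPM with WM-2474 at 240 h, and 5.59 and 11.8 CPM at 96 h. At 240 h Dcn averaged 55.9 and 84.5 CPM, and Pdgfra 152 and 205 CPM, in the same order. Markers of other cell types were low, and several sums did not overlap between the compounds. The 5 leukocyte markers summed to 7.21 to 9.79 CPM with WM-8014 and 4.21 to 5.42 CPM with WM-2474 at 240 h, and to 6.75 to 8.59 CPM with WM-8014 and 5.06 to 6.41 CPM with WM-2474 at 96 h. At 240 h Csf1r averaged 5.42 CPM with WM-8014 and 2.24 CPM with WM-2474, and Cd68 2.86 and 2.54 CPM. Ptprc, Adgre1 and Itgam averaged at most 0.104 CPM there. With WM-8014, Ptprc and Adgre1 were lower and Itgam higher. The 5 markers of neurons and glia, mostly Tubb3, summed to 62.8 to 73.0 CPM with WM-8014 and 74.8 to 93.0 CPM with WM-2474 at 240 h, where Map2 averaged 7.46 CPM with WM-8014 and 17.1 CPM with WM-2474, and the sums overlapped at 96 h. At 96 h the 4 markers each of endothelium, epithelium and skeletal muscle summed to 3.14 to 4.53, 0.955 to 1.76 and 0.135 to 0.34 CPM with WM-8014, below the 4.99 to 6.11, 2.03 to 3.53 and 0.371 to 0.796 CPM with WM-2474, and at 240 h these sums overlapped. Epcam was at 0 in every WM-8014 library and Pax7 in every WM-2474 library. The part of these markers in the results was not tested. The labels give the cultures as female, yet the Y-linked gene Ddx3y stood at 96.3 to 124 CPM and Xist at 0 to 4 reads in every library, so the sex label does not match the reads in any group. WM-2474 cultures 6 and 7 at 96 h stood apart in Stag3, a meiotic cohesin gene, with 1.81 and 2.50 CPM. Culture 5 of that group had 22.9 CPM, and the libraries of the other groups 26.1 to 37.5 CPM. Counts of genes that use that group are therefore also given with its culture 5 alone, a single library assumed to vary like the other groups. Single genes are given this way in a few cases only. Of the 33 genes, 11 overlap another protein-coding gene, and because the strand setting of the counting is not given their reads may not be separated.

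Promoter windows of 6 of the genes are shown first, because the E2F, TTTGAA and CCAAT elements are known from promoters of genes of the cell division cycle. Each window runs from 250 bases before to 50 bases after a RefSeq transcript start on assembly GRCm38.p6, 5′ to 3′ on the strand of the gene, and capitals mark matches to the motifs searched. Brca1, Rad51ap1, Rad54l and Blm fell in WM-8014 cultures by over 2-fold at 240 h and hold the CCAAT element, Bard1 fell less and holds the other motifs, and Mus81 did not pass the test and holds none. These 6 were chosen after their values were seen, and other genes run the other way. Xrcc3, Fancf and Fancc hold CCAAT and did not pass at 240 h. Eme1 fell by over 2-fold there without CCAAT, and Fanci fell with none of the motifs.
Brca1 (chr11:101551906-101552205, minus strand): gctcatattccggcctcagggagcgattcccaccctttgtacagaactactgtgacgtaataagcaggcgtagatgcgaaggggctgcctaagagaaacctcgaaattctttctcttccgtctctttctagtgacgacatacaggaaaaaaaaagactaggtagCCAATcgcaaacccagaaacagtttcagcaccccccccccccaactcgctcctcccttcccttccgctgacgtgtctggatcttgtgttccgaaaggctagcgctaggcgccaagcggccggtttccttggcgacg
Rad51ap1 (chr6:126939538-126939837, minus strand): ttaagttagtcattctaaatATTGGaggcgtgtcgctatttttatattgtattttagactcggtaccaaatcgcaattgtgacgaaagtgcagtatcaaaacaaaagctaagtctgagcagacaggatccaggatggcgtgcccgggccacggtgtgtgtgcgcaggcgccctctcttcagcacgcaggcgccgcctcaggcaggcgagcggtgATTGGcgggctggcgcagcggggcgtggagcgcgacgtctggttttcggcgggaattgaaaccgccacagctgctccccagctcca
Rad54l (chr4:116123640-116123939, minus strand): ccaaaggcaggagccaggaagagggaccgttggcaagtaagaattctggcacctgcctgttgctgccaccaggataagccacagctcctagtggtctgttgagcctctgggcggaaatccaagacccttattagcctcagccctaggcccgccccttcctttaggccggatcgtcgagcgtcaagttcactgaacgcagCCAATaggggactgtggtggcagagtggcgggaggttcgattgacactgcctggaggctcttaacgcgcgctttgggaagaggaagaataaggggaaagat
Blm (chr7:80534949-80535248, minus strand): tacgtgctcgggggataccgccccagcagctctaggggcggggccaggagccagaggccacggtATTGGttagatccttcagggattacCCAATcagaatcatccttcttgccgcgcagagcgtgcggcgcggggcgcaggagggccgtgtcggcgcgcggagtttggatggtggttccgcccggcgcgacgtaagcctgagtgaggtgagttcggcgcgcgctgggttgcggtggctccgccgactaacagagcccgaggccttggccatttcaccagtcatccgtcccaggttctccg
Bard1 (chr1:71102923-71103222, minus strand): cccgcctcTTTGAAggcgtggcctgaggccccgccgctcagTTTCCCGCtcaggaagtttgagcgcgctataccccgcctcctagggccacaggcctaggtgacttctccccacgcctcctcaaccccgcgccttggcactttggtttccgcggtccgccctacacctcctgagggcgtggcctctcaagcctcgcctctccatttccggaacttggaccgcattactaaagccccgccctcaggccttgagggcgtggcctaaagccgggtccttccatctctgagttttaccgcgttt
Mus81 (chr19:5488330-5488629, minus strand): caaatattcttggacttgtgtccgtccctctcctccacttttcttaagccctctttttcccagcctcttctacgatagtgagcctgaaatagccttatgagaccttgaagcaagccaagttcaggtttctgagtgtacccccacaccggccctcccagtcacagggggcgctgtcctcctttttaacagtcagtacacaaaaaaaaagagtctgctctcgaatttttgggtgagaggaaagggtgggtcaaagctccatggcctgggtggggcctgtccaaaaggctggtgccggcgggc
The motifs, read on both strands, were the E2F site (TTTCCCGC, TTTCGCGC, TTTGCCGC or TTTGGCGC), the cell-cycle homology region element TTTGAA and the CCAAT box. No motif contains another.

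RefSeq windows were matched for 25 of the 33 genes, with 28 windows in all because some genes have several starts. The CCAAT box was found in 18 of the 28 windows (64.3%), against 37.4% of all 32851 mouse promoter windows of the same length. The E2F site was found in 6 windows (21.4%), against 2.26% of all promoters, and TTTGAA in 3 windows (10.7%), against 17.9%. Those 6 E2F windows belong to 5 genes, Bard1, Brca2, Rad51c, Fancg and the untested Dmc1. Counted by gene, CCAAT was present in 12 of the 17 matched genes that fell at 240 h and in 4 of the 7 that did not pass the test there. The E2F site was present in 3 of those 17 genes (Bard1, Brca2 and Rad51c) and in 1 of those 7 (Fancg). These are matches of letters, with no test.

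Per length of transcript, the 33 genes spanned a wide range of levels. In WM-2474 cultures at 96 h, Nbn was highest at 13.5 ± 0.4099 RPKM (reads scaled to transcript length and library total; mean ± SD, n = 3), followed by Fance at 11.9 ± 0.569 and Rad50 at 11.04 ± 0.365 RPKM. Mus81 followed at 10.7 ± 0.554 RPKM. Fance and Rad50, and Rad50 and Mus81, are neighbours whose means differ by less than their SDs added together, while Fance and Mus81 differ by more. At the low end were Bard1 at 1.22 ± 0.0287, Rad54b at 0.991 ± 0.0592 and Rad51b at 0.619 ± 0.0318 RPKM, and Brca1 lay between at 2.89 ± 0.237 RPKM. Dmc1 was the lowest of all. Its reads in cultures 5, 6 and 7 were 4, 10 and 10 with WM-8014 and 9, 9 and 9 with WM-2474 at 240 h, and 0, 4 and 5 with WM-8014 and 3, 5 and 10 with WM-2474 at 96 h, which were too few to compare.

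At 240 h, WM-8014 cultures had lower transcript levels of most of these genes than WM-2474 cultures. Of the 32 genes tested, 22 fell (68.8%), 1 rose (3.12%) and 9 did not pass. Among all 14136 genes tested, 21.4% fell and 21.2% rose. The median log2 fold change was -0.58 for the 32 genes and 0.0051 for all genes. In 9 of them the fall was at least 2-fold, namely Fanca, Fancd2, Brca1, Exo1, Rad51ap1, Rad54l, Rad54b, Blm and Eme1. All 3 cultures were lower and the groups did not overlap in each of the 22, and the groups of 1 gene that did not pass were also apart. The share of such genes among all genes was not counted. A passing call largely implies this separation, so it adds no support of its own. In bulk RNA, fewer cells that express a gene and less RNA per cell cannot be told apart. All adjusted p values given here for single genes come from edgeR's quasi-likelihood test with Benjamini-Hochberg adjustment over all genes tested, and a gene passed when its adjusted p was under 0.05.

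**Figure D1:**
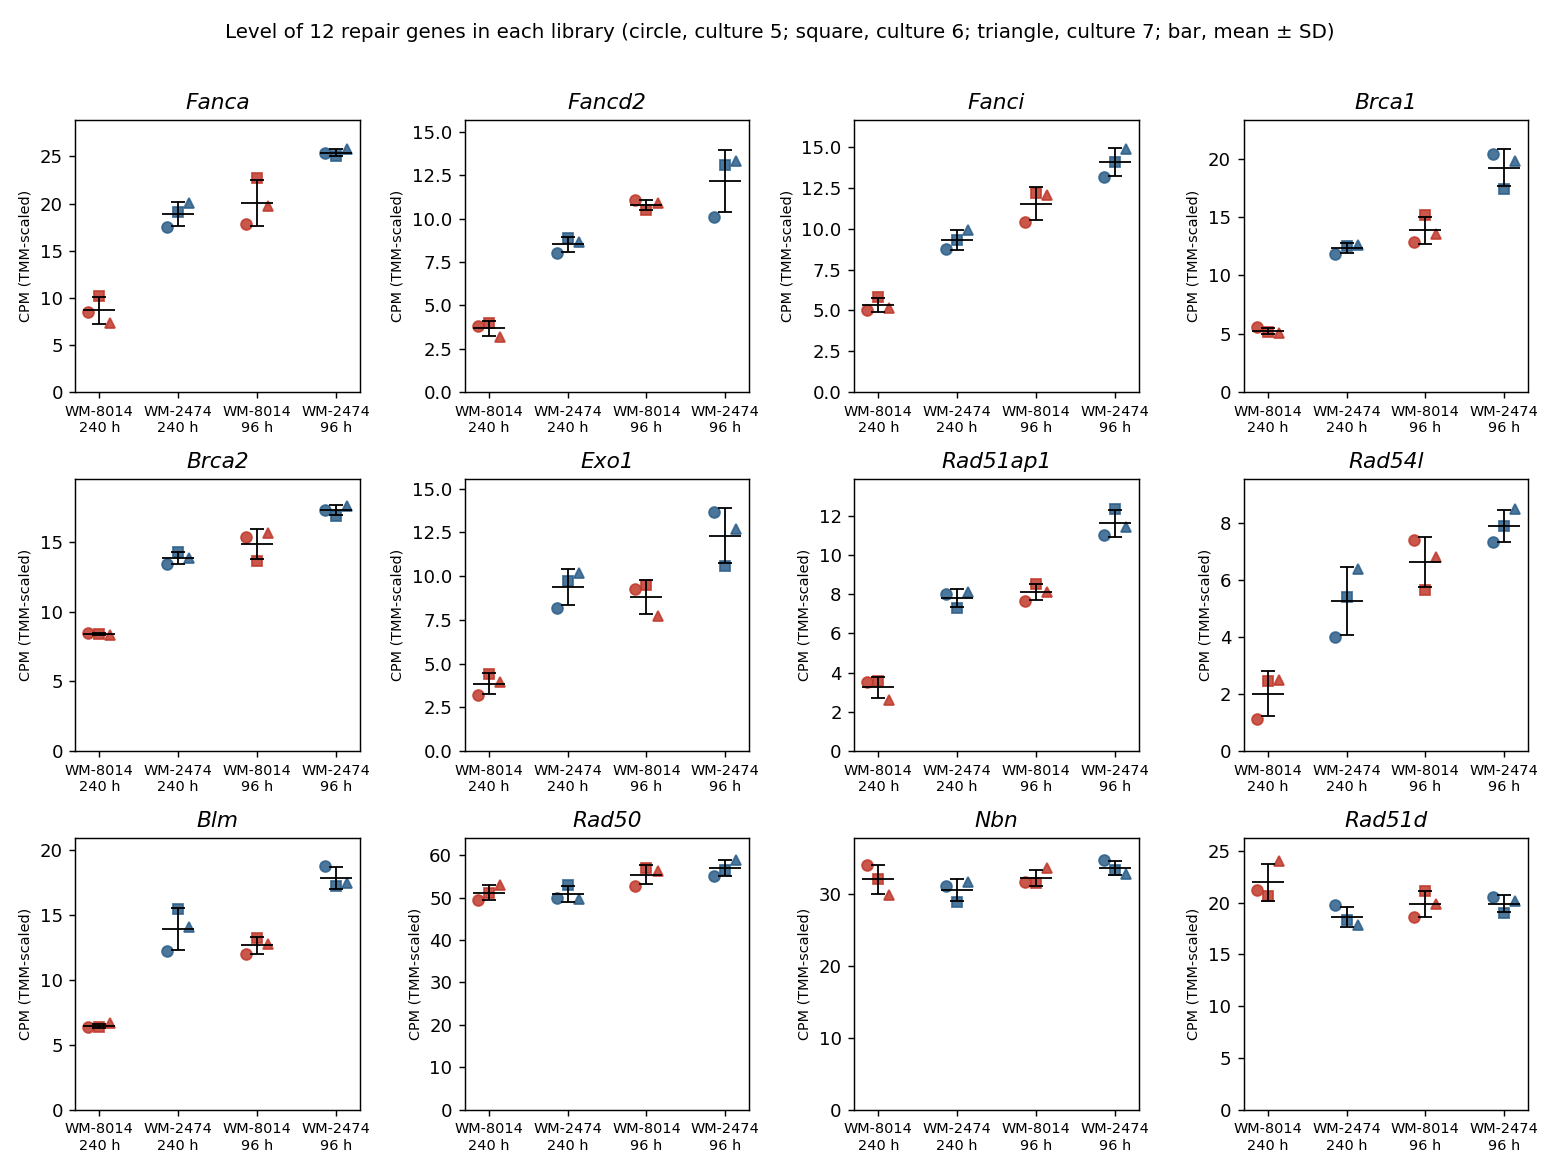
Level of 12 of the genes in each library, in CPM on a linear axis from 0, with the 4 groups side by side (red WM-8014, blue WM-2474; circle, square and triangle for cultures 5, 6 and 7; bars give mean ± SD, n = 3). Fancd2, Brca1 and Blm are lowest in the WM-8014 cultures at 240 h, and Rad51d is higher in the WM-8014 cultures at 240 h.

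At 96 h the same comparison showed smaller differences in fewer genes. Of the 32, 9 fell (28.1%), none rose and 23 did not pass, against 11.8% of all genes that fell and 10.9% that rose. The median log2 fold change was -0.17, beside 6.3e-05 for all genes. The 9 were Fanca, Fancm, Fanci, Brca1, Bard1, Brca2, Exo1, Rad51ap1 and Blm. Each of them also fell at 240 h, so that they make up 40.9% of the 22 genes lower there. The falls of Brca1, Blm and Fancm passed in every alternative tried. The count depended on single libraries, being 5 without WM-2474 culture 7 and 5 without WM-8014 culture 5, and it was 4 when the WM-2474 group was reduced to culture 5 for the reason given with Stag3.

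**Figure D2:**
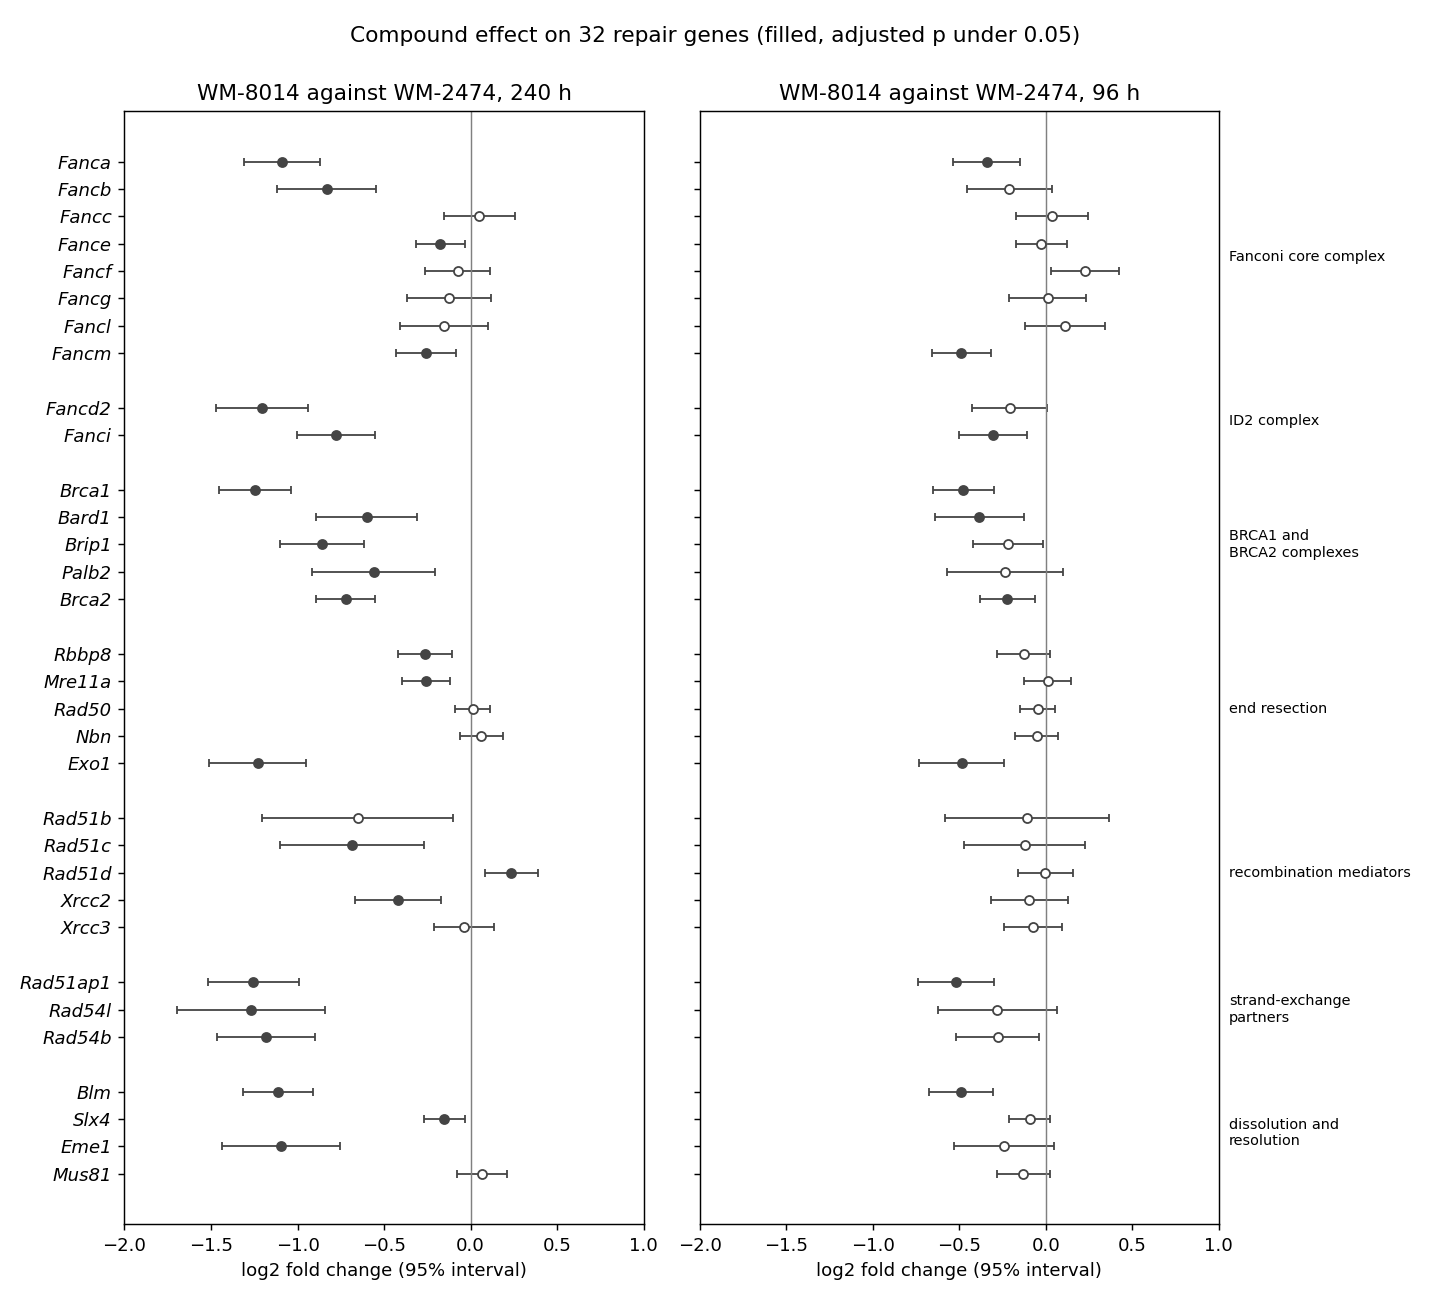
Log2 fold change of WM-8014 over WM-2474 for the 32 tested genes, with 95% intervals, at 240 h and at 96 h, grouped by role. Filled points passed the adjusted p threshold. At 240 h, 22 genes lie below zero and passed and Rad51d lies above, while at 96 h 9 passed, all below zero.

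The proliferation markers moved with these genes. All 16 of them (among them Mki67, Top2a, Plk1 and the Mcm genes) fell at 240 h (median log2 fold change -1.18), and 15 of 16 fell at 96 h (median -0.38). Their summed level was 428 to 499 CPM with WM-8014 and 949 to 1030.2 CPM with WM-2474 at 240 h, and 1043 to 1154 CPM with WM-8014 and 1361 to 1408 CPM with WM-2474 at 96 h. The summed level of the 33 repair genes was 361 to 378 CPM with WM-8014 and 441 to 461 CPM with WM-2474 at 240 h, and 471 to 494 CPM with WM-8014 and 531 to 538 CPM with WM-2474 at 96 h. At neither time did either sum overlap between the compounds. The part of the markers in the result was not tested.

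Both genes of the ID2 complex, the pair that the core complex marks with ubiquitin, fell at 240 h. Fancd2 (chr6:113531640-113597020) stood at 3.83, 4.01 and 3.17 CPM in WM-8014 cultures 5, 6 and 7, against 8.04, 8.89 and 8.66 CPM in the WM-2474 cultures, so that it fell by 56.6% (log2 fold change -1.21 ± 0.127 SE, adjusted p = 1.23e-07). Every WM-8014 culture was below every WM-2474 culture. At 96 h its values were 11.1, 10.5 and 10.9 CPM with WM-8014 and 10.1, 13.1 and 13.4 CPM with WM-2474, where the groups overlapped. There the log2 fold change of -0.21 (95% interval -0.43 to 0.00896) did not pass, although it passed without WM-2474 culture 5 (adjusted p = 0.044). Fanci, whose product is the partner of FANCD2, had 5.04, 5.84 and 5.14 CPM with WM-8014 and 8.74, 9.29 and 9.95 CPM with WM-2474 at 240 h (log2 fold change -0.78 ± 0.107, adjusted p = 4.93e-06). At 96 h it stood at 10.4, 12.2 and 12.04 CPM with WM-8014 and 13.2, 14.1 and 14.9 CPM with WM-2474, a log2 fold change of -0.30 (adjusted p = 0.0224). That smaller fall was not called without WM-2474 culture 7 (adjusted p = 0.167) or WM-8014 culture 5 (adjusted p = 0.13), nor by DESeq2 (adjusted p = 0.0737) or in thinned libraries (adjusted p = 0.0941). Against WM-2474 culture 5 alone, the log2 fold change of Fanci at 96 h was -0.19. Those of Fanca, Bard1 and Brca2 were -0.33, -0.38 and -0.22 there.

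The 8 genes of the core complex split. Fanca and Fancb fell clearly at 240 h, Fance and Fancm fell slightly, and Fancc, Fancf, Fancg and Fancl did not pass. Fanca, a large scaffold subunit, had 8.47, 10.2 and 7.33 CPM with WM-8014 and 17.5, 19.2 and 20.1 CPM with WM-2474 (log2 fold change -1.09 ± 0.105, adjusted p = 4.75e-08). Fancb, whose product sits with FANCL in the catalytic module, had 2.93, 3.87 and 3.81 CPM with WM-8014 and 5.95, 6.05 and 7.53 CPM with WM-2474 (-0.83 ± 0.138, adjusted p = 4.59e-05). In both genes all WM-8014 cultures were lower. Fancl, the ubiquitin ligase itself, had 4.44, 4.18 and 4.501 CPM with WM-8014 and 4.77, 5.25 and 4.46 CPM with WM-2474, groups that overlapped, with a log2 fold change of -0.15 (95% interval -0.41 to 0.10). Fancc, Fancf and Fancg had log2 fold changes of 0.05 (-0.16 to 0.25), -0.07 (-0.26 to 0.11) and -0.13 (-0.37 to 0.12), with 95% intervals in parentheses. The log2 fold change of Fance was -0.17 (adjusted p = 0.0464), and its call was lost when any single library except WM-8014 culture 6 was left out (adjusted p = 0.0505 to 0.26). It was also lost by DESeq2 (adjusted p = 0.11), in thinned libraries (adjusted p = 0.0592) and with only the groups compared in the fit (adjusted p = 0.0543).

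Fancm, a DNA translocase that brings the core complex to damaged DNA, was the core gene with the clearest fall at 96 h. It had 16.6, 16.03 and 16.2 CPM with WM-8014 and 23.95, 22.8 and 22.2 CPM with WM-2474 at 96 h (log2 fold change -0.49 ± 0.0823, adjusted p = 0.00023). At 240 h the values were 12.2, 15.3 and 12.8 CPM with WM-8014 and 15.3, 17.6 and 16.3 CPM with WM-2474 (-0.26 ± 0.0843, adjusted p = 0.0174). At 96 h the groups stood apart, and at 240 h they nearly met, with 15.28 CPM in the highest WM-8014 culture and 15.33 CPM in the lowest WM-2474 culture. The 240 h call was lost without WM-2474 culture 6 (adjusted p = 0.0977), WM-8014 culture 5 (adjusted p = 0.0691) or WM-8014 culture 7 (adjusted p = 0.0825), without culture 7 in any group (adjusted p = 0.141) and in thinned libraries (adjusted p = 0.214). Fanca also fell at 96 h, with 17.9, 22.7 and 19.8 CPM with WM-8014 and 25.3, 25.03 and 25.8 CPM with WM-2474 (-0.34 ± 0.0934, adjusted p = 0.0119), a call lost without WM-2474 culture 7 (adjusted p = 0.0633) or WM-8014 culture 5 (adjusted p = 0.0798).

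All 5 genes of the BRCA1 and BRCA2 complexes fell at 240 h. Brca1 (chr11:101488761-101551955), a ubiquitin ligase that directs breaks towards recombination, had 5.55, 5.15 and 5.08 CPM with WM-8014, against 11.8, 12.5 and 12.6 CPM with WM-2474. It fell by 57.8% (log2 fold change -1.24 ± 0.1004, adjusted p = 2.4e-09), the smallest adjusted p of the 32 genes. At 96 h it had 12.8, 15.1 and 13.6 CPM with WM-8014 and 20.4, 17.4 and 19.8 CPM with WM-2474, and fell by 28.1% (-0.48 ± 0.0843, adjusted p = 0.000352). The 3 cultures of each group lay close together and the groups stood apart at both times. Bard1, the obligate partner of BRCA1, had 3.13, 2.97 and 2.48 CPM with WM-8014 and 4.29, 4.45 and 4.21 CPM with WM-2474 at 240 h (-0.60 ± 0.1403, adjusted p = 0.00147), where thinning all libraries to the smallest total ended the call (adjusted p = 0.0516). Its log2 fold change at 96 h was -0.38 (adjusted p = 0.0285), not called without WM-2474 culture 7 (adjusted p = 0.131), WM-8014 culture 5 (adjusted p = 0.142) or WM-8014 culture 7 (adjusted p = 0.0611), nor by DESeq2 (adjusted p = 0.109) or in thinned libraries (adjusted p = 0.0543).

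Brca2, which starts filament assembly on resected DNA, had 8.47, 8.402 and 8.37 CPM with WM-8014 and 13.5, 14.3 and 13.9 CPM with WM-2474 at 240 h (log2 fold change -0.72 ± 0.0828, adjusted p = 4.01e-07). The WM-8014 cultures were nearly identical to one another and all below the WM-2474 cultures. At 96 h its log2 fold change of -0.22 passed narrowly (adjusted p = 0.0412) and did not pass when any single library except WM-8014 culture 7 was left out (adjusted p = 0.0628 to 0.187), nor by DESeq2 (adjusted p = 0.129), with no filter on low counts (adjusted p = 0.0683), in thinned libraries (adjusted p = 0.0677) or with only the groups compared in the fit (adjusted p = 0.0602). Brip1, the helicase bound to BRCA1 and also a Fanconi gene, had 4.94, 4.25 and 4.04 CPM with WM-8014 and 7.99, 8.36 and 7.18 CPM with WM-2474 at 240 h (-0.86 ± 0.116, adjusted p = 3.6e-06). At 96 h its log2 fold change of -0.22 did not pass, although the groups did not overlap. Palb2, the bridge between BRCA1 and BRCA2, had 3.23, 2.63 and 2.08 CPM with WM-8014 and 3.75, 3.78 and 3.86 CPM with WM-2474 at 240 h (-0.56 ± 0.172, adjusted p = 0.0115). That call was lost without WM-8014 culture 7 (adjusted p = 0.0666), without culture 6 or 7 in any group (adjusted p = 0.0745 and 0.134) and in thinned libraries (adjusted p = 0.0797). At 96 h Palb2 did not pass (-0.24, 95% interval -0.57 to 0.10).

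Among the genes of end resection, which turns a break into single-stranded DNA, Exo1 fell, Mre11a and Rbbp8 fell slightly, and Rad50 and Nbn did not pass at 240 h. Exo1, a nuclease of long-range resection, had 3.23, 4.39 and 3.92 CPM with WM-8014, against 8.201, 9.74 and 10.2 CPM with WM-2474 at 240 h, and fell by 57.3% (log2 fold change -1.23 ± 0.134, adjusted p = 2.07e-07). At 96 h the values were 9.24, 9.48 and 7.71 CPM with WM-8014 and 13.6, 10.6 and 12.7 CPM with WM-2474 (-0.48 ± 0.118, adjusted p = 0.00519), with no overlap, and the call was lost when culture 7 was left out of every group (adjusted p = 0.155). Mre11a, Rad50 and Nbn encode the complex that senses and trims broken ends. Mre11a had 21.6, 23.5 and 21.8 CPM with WM-8014 and 24.9, 28.01 and 27.5 CPM with WM-2474 at 240 h (-0.26 ± 0.0661, adjusted p = 0.00325). Rad50 had 49.4, 51.2 and 52.9 CPM with WM-8014 and 49.9, 53.05 and 49.7 CPM with WM-2474, overlapping groups whose log2 fold change of 0.01 had an interval of -0.09 to 0.11. Nbn had 34.00, 32.1 and 29.9 CPM with WM-8014 and 31.1, 28.9 and 31.6 CPM with WM-2474 (0.06, interval -0.06 to 0.18). Rbbp8, which encodes CtIP and starts resection with this complex, fell by 16.6% at 240 h (-0.26 ± 0.0743, adjusted p = 0.0067). None of these 4 genes passed at 96 h, and without culture 7 in any group neither Rbbp8 (adjusted p = 0.136) nor Mre11a (adjusted p = 0.055) passed at 240 h.

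The recombination mediators, which form small complexes that assist strand invasion, did not all move in one direction at 240 h, where 2 fell, 1 rose and 2 did not pass. Rad51c had 1.21, 1.56 and 2.08 CPM with WM-8014 and 2.57, 2.36 and 3.07 CPM with WM-2474 at 240 h (log2 fold change -0.68 ± 0.1997, adjusted p = 0.00839), a call lost without WM-8014 culture 6 (adjusted p = 0.0564) or without culture 5 or 6 in any group (adjusted p = 0.051 and 0.0545). Xrcc2 had 5.04, 5.22 and 4.27 CPM with WM-8014 and 6.38, 6.003 and 7.23 CPM with WM-2474 (-0.42 ± 0.1197, adjusted p = 0.00682), and was not called without culture 7 in any group (adjusted p = 0.17). Rad51d was the 1 gene of the 32 that rose, with 21.2, 20.7 and 24.01 CPM with WM-8014 and 19.7, 18.4 and 17.8 CPM with WM-2474 (0.24 ± 0.0743, adjusted p = 0.0138). The rise was not called without WM-2474 culture 7 (adjusted p = 0.0588) or WM-8014 culture 7 (adjusted p = 0.104). Rad51b, at 7 to 90 reads a library, had 0.706, 1.003 and 0.635 CPM with WM-8014 and 1.07, 1.38 and 1.44 CPM with WM-2474. Its groups did not overlap, its log2 fold change of -0.65 missed the threshold (adjusted p = 0.0527), and it passed without WM-2474 culture 5 (adjusted p = 0.0348) or WM-8014 culture 6 (adjusted p = 0.0286). Xrcc3 did not pass (-0.04, 95% interval -0.21 to 0.13). No mediator passed at 96 h, where their log2 fold changes lay between -0.12 and -0.0021.

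The 3 tested genes of strand-exchange partners fell at 240 h by more than 2-fold each. Rad51ap1 (chr6:126923415-126939621), which helps capture the intact duplex during strand invasion, had 3.53, 3.596 and 2.597 CPM with WM-8014, against 7.99, 7.29 and 8.12 CPM with WM-2474 (log2 fold change -1.25 ± 0.126, adjusted p = 6e-08). At 96 h it had 7.68, 8.53 and 8.12 CPM with WM-8014 and 11.05, 12.4 and 11.4 CPM with WM-2474 (-0.52 ± 0.106, adjusted p = 0.00135), with no overlap. Against WM-2474 culture 5 alone, a group of 1 library whose spread was taken from the other groups, the log2 fold change was -0.45 and did not pass (adjusted p = 0.144). Rad54l and Rad54b encode related motor proteins that remodel DNA during strand exchange. Rad54l had 1.11, 2.46 and 2.48 CPM with WM-8014 and 4.02, 5.42 and 6.39 CPM with WM-2474 at 240 h (-1.27 ± 0.204, adjusted p = 4.5e-05), the largest fall of the 32 genes, with WM-8014 culture 5 below the other WM-8014 cultures. Rad54b had 2.22, 2.49 and 2.25 CPM with WM-8014 and 5.57, 5.56 and 4.95 CPM with WM-2474 (-1.18 ± 0.137, adjusted p = 4.59e-07). Neither passed at 96 h, with log2 fold changes of -0.28 for Rad54l (95% interval -0.62 to 0.07) and -0.28 for Rad54b (-0.52 to -0.04).

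Of the 4 genes that separate joined molecules, Blm and Eme1 fell strongly at 240 h, Slx4 slightly, and Mus81 did not pass. Blm (chr7:80454993-80535148), the helicase that dissolves double Holliday junctions, had 6.36, 6.36 and 6.64 CPM with WM-8014, against 12.2, 15.4 and 14.1 CPM with WM-2474 (log2 fold change -1.11 ± 0.0981, adjusted p = 9.35e-09). At 96 h it had 11.96, 13.2 and 12.7 CPM with WM-8014 and 18.8, 17.2 and 17.4 CPM with WM-2474 (-0.49 ± 0.0889, adjusted p = 0.000477). The groups stood apart at both times. EME1 and MUS81 form a single nuclease. Eme1 had 2.22, 2.28 and 2.02 CPM with WM-8014 and 3.81, 5.74 and 4.36 CPM with WM-2474 at 240 h (-1.09 ± 0.165, adjusted p = 1.42e-05), with no overlap. Mus81 had 23.3, 24.7 and 23.8 CPM with WM-8014 and 23.7, 23.1 and 22.03 CPM with WM-2474, overlapping groups with a log2 fold change of 0.07 (95% interval -0.08 to 0.21). Slx4, a scaffold for this and other nucleases, fell by 9.96% (-0.15 ± 0.0561, adjusted p = 0.034). The fall of Slx4 was not called without WM-2474 culture 6 (adjusted p = 0.0683), WM-2474 culture 7 (adjusted p = 0.17), WM-8014 culture 5 (adjusted p = 0.092) or WM-8014 culture 7 (adjusted p = 0.113), nor by DESeq2 (adjusted p = 0.0876).

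**Figure D3:**
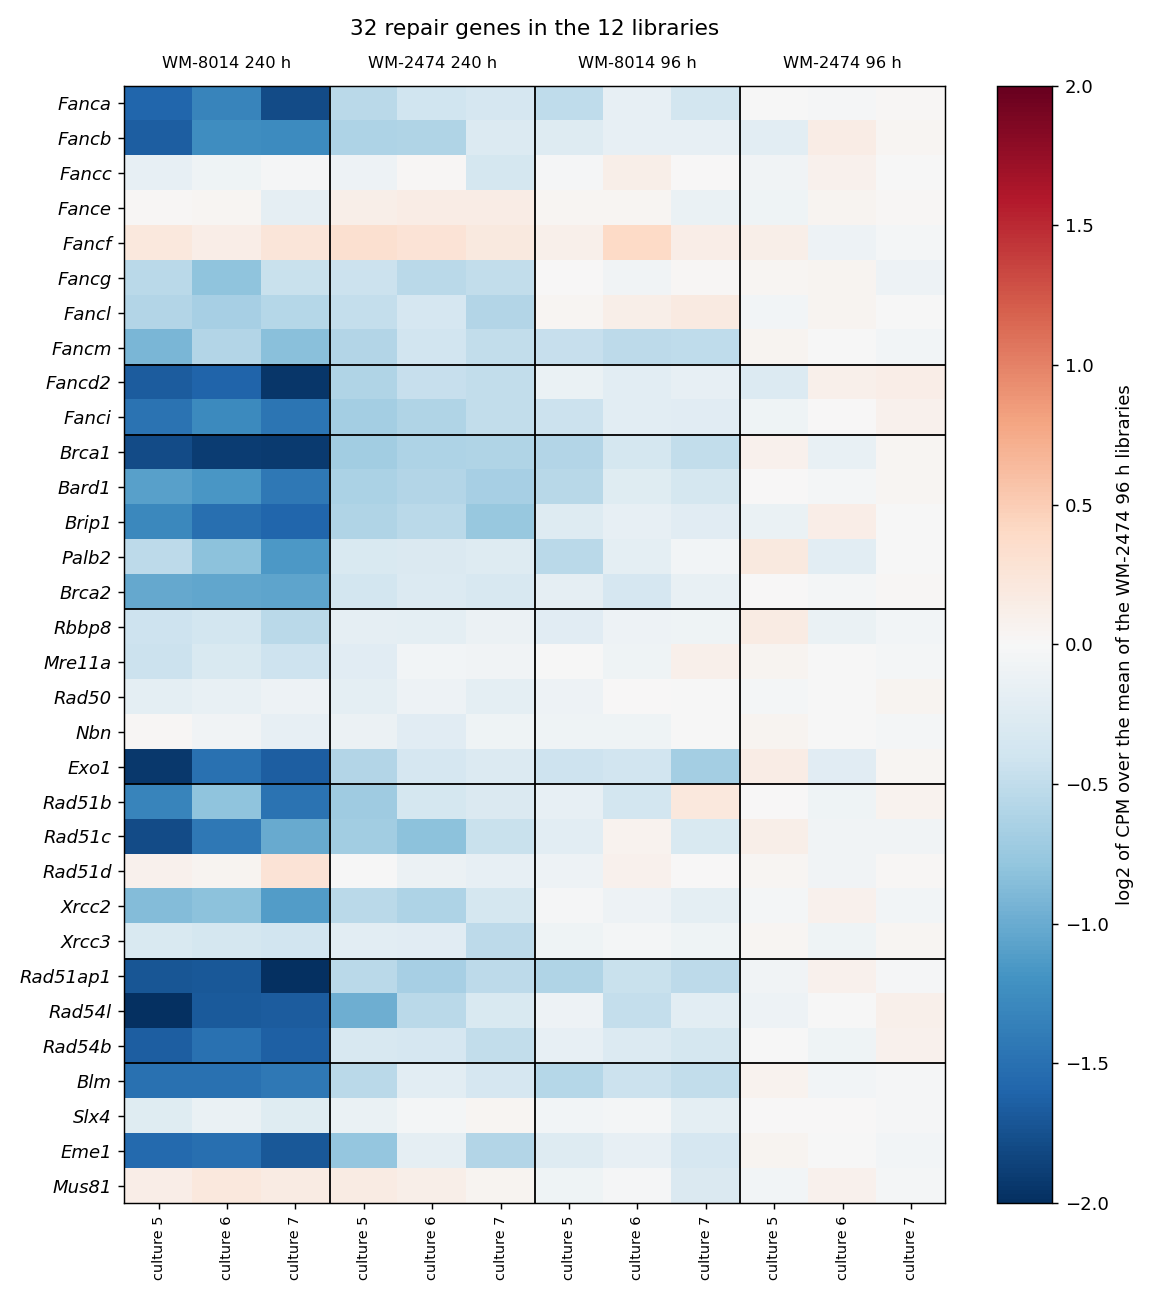
Log2 ratio of the CPM of the 32 tested genes in each of the 12 libraries to the mean CPM of the 3 WM-2474 libraries at 96 h, with genes in rows by role and libraries in columns by group. The colour scale stops at 2 in either direction, and the lowest value, -2.83, belongs to Rad54l in WM-8014 culture 5 at 240 h. The WM-8014 libraries at 240 h hold the darkest falls, with Rad50, Nbn and Mus81 near zero.

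The compound effect differed between the times for 13 of the 32 genes, each more negative at 240 h, against 5.53% of all genes tested with a difference in that direction and 5.15% in the other. None of the 32 differed in the other direction, and the median difference was -0.33, beside -0.0042 for all genes. The largest differences on the log2 scale were those of Fancd2 (-0.997 ± 0.166, adjusted p = 0.000358), Rad54l (-0.99 ± 0.264, adjusted p = 0.0191), Rad54b (-0.90 ± 0.182, adjusted p = 0.00211) and Eme1 (-0.85 ± 0.217, adjusted p = 0.0129). None of those 4 had passed at 96 h. Of the genes that had, Brca1 differed by -0.77 ± 0.132 (adjusted p = 0.000512), Fanca by -0.75 ± 0.142 (adjusted p = 0.00131) and Blm by -0.63 ± 0.134 (adjusted p = 0.00357). Fancm and Bard1 did not pass, with differences of 0.23 (95% interval -0.02 to 0.48) and -0.22 (-0.61 to 0.17). Of the 16 proliferation markers, 15 also had a more negative effect at 240 h, with a median difference of -0.84. The difference for Rad54l was not called without WM-2474 culture 7 at 240 h (adjusted p = 0.0557) or WM-8014 culture 5 at 96 h (adjusted p = 0.0556). Without culture 6 or 7 in any group, the calls of Rad54l (adjusted p = 0.0761 and 0.127), Eme1 (0.175 and 0.103) and Blm (0.142 and 0.0622) were lost. So were those of Brip1 (0.11 and 0.0693), Brca2 (0.0522 and 0.0773) and Exo1 (0.0868 and 0.0547). Fancb (0.0751 and 0.21) and Fanci (0.155 and 0.229) were lost in the same way, and Rad51ap1 without culture 7 only (0.131). The calls of Fancd2, Rad54b, Brca1 and Fanca held whenever a library or a culture was left out. Leaving out 1 library ended the call of Fancb in 6 of the 12 cases (adjusted p = 0.0607 to 0.0969) and that of Fanci in 8 (adjusted p = 0.0606 to 0.09). For both genes these included WM-2474 culture 5, WM-8014 culture 6 and WM-8014 culture 7 at 96 h, and WM-2474 culture 7 and WM-8014 culture 5 at 240 h. WM-2474 culture 7 at 96 h ended the call of Fancb alone, and WM-2474 culture 6 at either time and WM-8014 culture 7 at 240 h that of Fanci alone. Mre11a (-0.27, adjusted p = 0.0695) passed without WM-2474 culture 5 at 240 h (adjusted p = 0.0261) or WM-8014 culture 6 at 96 h (adjusted p = 0.0484). With WM-2474 at 96 h reduced to culture 5, 6 genes passed.

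Levels also moved with time under either compound. Under WM-8014, 24 of the 32 genes were lower at 240 h than at 96 h (75%), 1 was higher and 7 did not pass, against 25% of all genes lower and 24.8% higher. Under WM-2474, 21 were lower (65.6%), 1 was higher and 10 did not pass, against 19.1% of all genes lower and 19.8% higher. The medians of the log2 fold change were -0.82 under WM-8014 and -0.41 under WM-2474, beside -0.017 and -0.014 for all genes. Of the genes that fell, 20 were on both lists, which is 83.3% of those under WM-8014 and 95.2% of those under WM-2474. Mre11a, Palb2, Rad51b and Rbbp8 passed under WM-8014 alone and Rad50 under WM-2474 alone, and none of these 5 passed the test of the difference between the compounds. All 16 proliferation markers fell with time under each compound, with medians of -1.30 under WM-8014 and -0.50 under WM-2474. The summed fibroblast markers, mostly Col1a1, Col1a2, Vim and Col3a1, were higher at 240 h than at 96 h. At 240 h they summed to 38217 to 40032 CPM with WM-8014 and 38090 to 39423 CPM with WM-2474. At 96 h the sums were 25477 to 28317 CPM with WM-8014 and 23249 to 26758 CPM with WM-2474. Mean Pdgfra went the other way, from 329 to 152 CPM with WM-8014 and from 299 to 205 CPM with WM-2474. Mean Dcn and Lum were lower at 240 h with WM-8014 and higher with WM-2474. The other fibroblast markers had higher means at 240 h under both compounds. The part of these markers in the result was not tested.

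**Figure D4:**
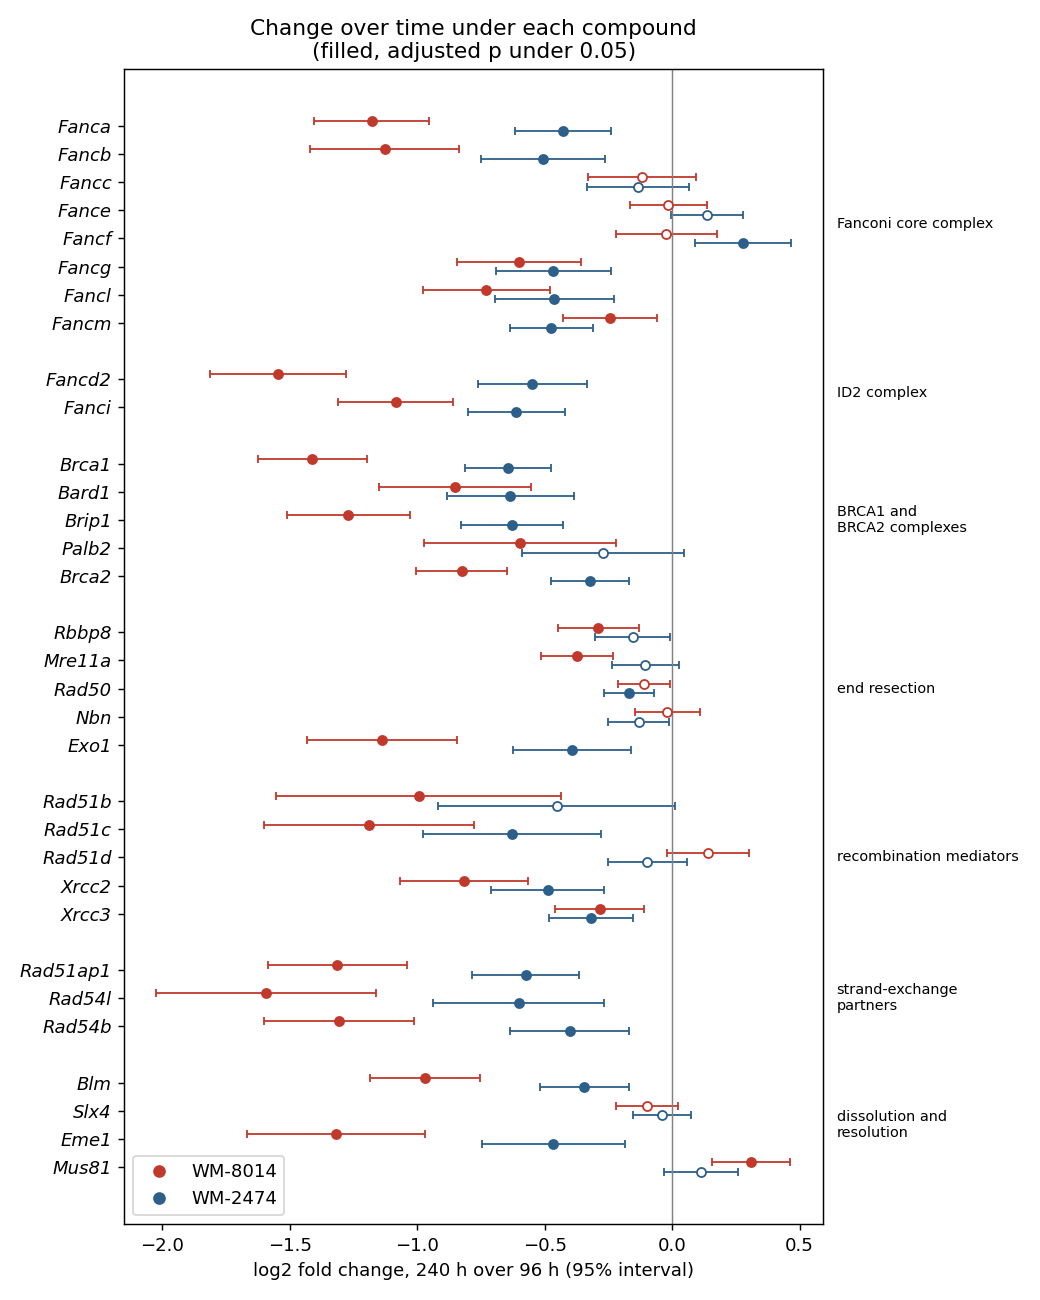
Log2 fold change of 240 h over 96 h under WM-8014 and under WM-2474 for the 32 tested genes, with 95% intervals, grouped by role. Most genes lie below zero under both compounds, and Fancd2, Rad54l and Brca1 lie further below zero under WM-8014, at -1.55, -1.59 and -1.41, than under WM-2474, at -0.55, -0.60 and -0.64.

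Single genes show the size of the time change. Brca1 changed with time by -1.41 ± 0.103 on the log2 scale under WM-8014 (adjusted p = 2.13e-10) and by -0.64 ± 0.0817 under WM-2474 (adjusted p = 1.84e-06). Fancd2 changed by -1.55 ± 0.128 under WM-8014 (adjusted p = 1.61e-09) and by -0.55 ± 0.103 under WM-2474 (adjusted p = 0.000204). Fancg and Fancl, which did not pass in the compound comparison at either time, fell with time under both compounds. Fancl changed by -0.73 ± 0.1201 under WM-8014 (adjusted p = 3e-05) and by -0.46 ± 0.111 under WM-2474 (adjusted p = 0.00221). Against WM-2474 culture 5 alone at 96 h, the change under WM-2474 was -0.24 for Fancd2 and -0.40 for Fancl. Fancg changed by -0.60 ± 0.117 under WM-8014 (adjusted p = 0.000198) and by -0.47 ± 0.108 under WM-2474 (adjusted p = 0.00157). The genes that rose were Mus81 under WM-8014 (0.31 ± 0.0735, adjusted p = 0.00139) and Fancf under WM-2474 (0.28 ± 0.0907, adjusted p = 0.0186).

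Several calls of time rested on 1 library. Under WM-8014, Fancm was not called without culture 5 or 7 at 96 h (adjusted p = 0.0722 and 0.0508) or culture 5 or 7 at 240 h (adjusted p = 0.0903 and 0.107), Palb2 not without culture 7 at 96 h (adjusted p = 0.0574), and Rad50 was gained without culture 5 at 96 h (adjusted p = 0.0343). Palb2 was also the 1 called gene whose groups overlapped, with 3.23, 2.63 and 2.08 CPM at 240 h and 3.19, 4.02 and 4.46 CPM at 96 h under WM-8014. Under WM-2474, leaving out culture 7 at 96 h ended the calls of Rad50 (adjusted p = 0.0758), Exo1 (adjusted p = 0.0619), Rad54l (adjusted p = 0.0595), Rad54b (adjusted p = 0.0824) and Fancf (adjusted p = 0.102). Fancf was also lost without culture 6 at 96 h (adjusted p = 0.0651) or at 240 h (adjusted p = 0.0545), and Eme1 without culture 5 at 240 h (adjusted p = 0.0595), and Rbbp8 was gained without culture 6 at 96 h (adjusted p = 0.0452). With the 96 h group reduced to culture 5, 10 of the 32 genes were lower with time under WM-2474.

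Other genes of DNA repair, in lists that exclude the 33, were counted in the same way. Their counts stand beside the shares of all genes tested, of which 21.4% fell and 21.2% rose at 240 h. At 96 h those shares were 11.8% and 10.9%. Among 17 partners of the Fanconi pathway, 3 fell, 2 rose and 12 did not pass at 240 h, with a median log2 fold change of -0.059. Usp1, the enzyme that removes ubiquitin from FANCD2, averaged 36.8 ± 1.95 CPM with WM-8014 and 61.1 ± 4.24 CPM with WM-2474 (SD, n = 3 each), a log2 fold change of -0.74 ± 0.0602 (adjusted p = 3.31e-09). Ube2t, the conjugating enzyme that works with FANCL, changed by -0.79 ± 0.209 (adjusted p = 0.00452), and the nuclease subunit Ercc1 by 0.31 ± 0.0561 (adjusted p = 0.000104). The call of Ube2t was lost without culture 7 in any group (adjusted p = 0.0947). Faap100, the third that fell (-0.29, adjusted p = 0.0168), lost its call in 4 alternatives (adjusted p up to 0.246). At 96 h, 1 of the 17 fell and 2 rose, and Usp1 was the one that fell (-0.34 ± 0.0564, adjusted p = 0.000203). The 2 that rose were Cenpx (0.31, adjusted p = 0.0264) and Ercc4 (0.21, adjusted p = 0.0312), and each call was lost in 9 alternatives, DESeq2 and the omission of single libraries among them (adjusted p up to 0.237 for Cenpx and 0.239 for Ercc4).

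Among 29 other genes of homologous recombination, 12 fell, 3 rose and 14 did not pass at 240 h, with a median of -0.20, and 4 fell, 1 rose and 24 did not pass at 96 h, with a median of -0.042. Gen1, a resolvase of Holliday junctions, averaged 3.12 ± 1.06 CPM with WM-8014 and 7.34 ± 0.817 CPM with WM-2474 at 240 h (log2 fold change -1.21 ± 0.168, adjusted p = 7.26e-06). Fignl1, an ATPase of recombination, averaged 7.11 ± 1.36 CPM with WM-8014 and 16.6 ± 1.43 CPM with WM-2474 (-1.18 ± 0.109, adjusted p = 1.93e-08). Rpa2, a subunit of the protein that coats single-stranded DNA, changed by -0.69 ± 0.0914 (adjusted p = 2.74e-06). Each of these 3 genes fell.

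Of 19 genes of damage signalling, 9 fell, 1 rose and 9 did not pass at 240 h, with a median of -0.14. The smallest p values were those of Clspn (-1.15 ± 0.09002, adjusted p = 1.61e-09), which couples stalled forks to the checkpoint kinase, Topbp1 (-0.55 ± 0.0481, adjusted p = 7.68e-09), which activates ATR, and Timeless (-0.95 ± 0.0967, adjusted p = 6.85e-08), of the complex that protects stalled forks, and Timeless fell by more than Topbp1. Of 11 genes of end joining, the competing route for breaks, 2 fell and 9 did not pass, the 2 being Rif1 (-0.81 ± 0.0683, adjusted p = 4.9e-09) and Polq (-1.09 ± 0.133, adjusted p = 9.2e-07). Mismatch repair had 4 of 7 genes that fell and none that rose, base excision repair 8 of 17 that fell and 1 that rose, and nucleotide excision repair 1 of 15 that fell and 2 that rose. Their medians were -0.29, -0.17 and -0.039. At 96 h, 5 genes of damage signalling fell and 4 rose, 2 of end joining fell and 2 rose, 1 of mismatch repair fell, 3 of base excision repair fell and 1 rose, and 1 of nucleotide excision repair fell. Their medians, in that order, were -0.12, 0.14, 0.013, -0.0085 and 0.011. Of these calls, that of Ercc2, the gene of nucleotide excision repair that fell, was lost in 5 alternatives at 240 h and in 7 at 96 h, and at 96 h those of Tdg, Smug1, Xrcc5, Chek1, Msh6 and Prkdc were lost in 13, 11, 8, 6, 6 and 5. The 96 h calls of Rif1, Polq, Topbp1, Tipin, Clspn and Parp1 were lost in 4, 3, 3, 3, 2 and 2 alternatives. The 240 h calls of Pms1 and Pms2 were lost in 1 each. Of 13 meiotic genes, 5 had enough reads to test. None of these 5 passed at 240 h, and at 96 h Rec8 fell and Stag3 rose. Stag3 (log2 fold change 2.29, adjusted p = 0.0436) was called with WM-2474 cultures 6 and 7 at the low values given above, and its call was lost in 12 alternatives, with a log2 fold change of 0.41 against culture 5 alone (adjusted p = 0.0998). Rec8, at most 1.09 CPM in any library (-1.12, adjusted p = 0.0193), lost its call in 7 alternatives (adjusted p up to 0.336).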

How the data were processed

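The deposited table holds raw read counts per gene, obtained by the authors with featureCounts and the mm10 assembly, according to the submitters' processing notes. Libraries were prepared with a stranded messenger RNA kit, per the labels' protocols. The sources used here do not give the aligner, the annotation or the strand setting. Of the 33 genes, 11 overlap another protein-coding gene (Fanca, Fancb, Fancc, Fancf, Fancl, Fancd2, Fanci, Xrcc3, Rad54l, Rad54b and Eme1), and their reads may not be separated. Identifiers were matched to symbols in a RefSeq table of GRCm38.p6, the coordinates of mm10, for 25275 of 27179 genes (93%). RPKM used the gene lengths deposited with the counts.

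Tests used edgeR 4.0.16 under R 4.3.3: filterByExpr by group left 14136 genes, TMM scaled the totals, and 4 group means were fitted over all 12 libraries (biological coefficient of variation 4.64%). The robust quasi-likelihood F test was two-sided, with p values adjusted by Benjamini-Hochberg over all genes tested. Standard errors and 95% intervals were derived from the F statistic. CPM are on TMM totals. The log2 CPM of single libraries used a prior count of 2. Pairs of replicates differed by more than sampling noise (chi-square per degree of freedom 2.1 to 7.13), so none was counted as a duplicate.

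Deviations of same-numbered cultures from their group means correlated at 0.14, 0.15 and 0.16 at 96 h. At 240 h they correlated at 0.064, 0.24 and 0.048, where not all passed 0.1. The main tests did not pair libraries at either time. Culture number entered a fit only in the alternative with a replicate block. Alternatives were DESeq2 1.42.0, its size factors, other filters, a replicate block, each comparison's 2 groups alone, thinned libraries, and leaving out libraries. The scripts were tested on simulated data.

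All 33 genes are named whatever their values. In each other list the 4 genes with the smallest p in each compound comparison could be named, and a few of these are left out here. The genes and lists were chosen with earlier results of these data known.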

Additional observations from a re-analysis of the deposited data

Results flagged for a closer look

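The log2 effect of WM-8014 against WM-2474 differed between 240 h and 96 h by a test of the difference itself in 13 genes, all more negative at 240 h. The difference was -0.75 for Fanca, -0.62 for Fancb, -0.997 for Fancd2, -0.47 for Fanci, -0.77 for Brca1, -0.64 for Brip1, -0.50 for Brca2, -0.75 for Exo1, -0.74 for Rad51ap1, -0.99 for Rad54l, -0.90 for Rad54b, -0.63 for Blm and -0.85 for Eme1. The adjusted p ran from 0.000358 for Fancd2 to 0.0354 for Fanci. Leaving out single libraries or whole cultures gave 4 to 14 genes. Of the 13, only Fanca, Fancd2, Brca1 and Rad54b kept their calls whenever a library or a culture was left out. Groups of 3 libraries are too small for a search for single libraries that lie far from the others.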

How the results depend on the processing

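No gene of the 32 changed direction while called under any alternative. DESeq2's size factors, no filter on low counts, a CPM filter and fits of only the groups compared kept every count of these genes within 1.5 times. With culture number as a replicate block, 9, 22, 13, 25 and 21 of the 32 genes and 1853, 3176, 923, 3626 and 2857 of all genes were lower at 96 h, at 240 h, in the difference between the times, with time under WM-8014 and with time under WM-2474. The block added Rad50 with time under WM-8014 (adjusted p = 0.048) and changed no other call of these genes.

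With the WM-2474 96 h group reduced to culture 5, whose spread was taken from the other groups, 4 of the genes were lower at 96 h (437 of all genes lower and 432 higher), 6 in the difference between the times (346 lower and 240 higher over all genes) and 10 with time under WM-2474 (1256 lower and 1454 higher over all genes, and 0 of the 32 higher). DESeq2 and thinned libraries also gave 0 higher there.

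Leaving out single libraries or whole cultures gave 4 to 9 genes lower at 96 h (903 to 1422 of all genes lower and 847 to 1340 higher) and 15 to 22 lower and 0 to 1 higher at 240 h (2193 to 2994 and 2161 to 2795). It gave 4 to 14 for the difference between the times (409 to 801 and 315 to 802), the lowest without culture 7, and 5 without culture 6. With time it gave 20 to 24 lower and 1 higher under WM-8014 (2672 to 3235 and 2798 to 3283) and 15 to 22 lower and 0 to 1 higher under WM-2474 (1821 to 2469 and 1995 to 2794). The causes were not tested. At the depth of the smallest library, the 240 h calls of Fance, Fancm, Bard1 and Palb2 were lost, and Dmc1 had too few reads to test.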
